A study of Mus musculus with 22 samples.

Results

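The regions described here had an H3K4me3 peak listed for neuroepithelial cells of the mouse brain and none listed for the 4 later cell types of the series. Peaks of the 5 H3K4me3 lists that shared at least 1 bp were joined into regions. An autosomal region was kept when it held a peak of the neuroepithelial list and no peak of another list. This gave 2574 NEC-only regions among 16571 autosomal H3K4me3 regions, or among 15888 that had a neuroepithelial peak. Every one of them rested on 1 neuroepithelial peak. The regions were selected on the positions of H3K4me3 peaks, so their number, width and fold enrichment are given as descriptions, and H3K27me3 is the readout that the choice did not use.

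Cells came from the neocortex of C57BL/6JOlaHsd mice, without a transgene or treatment named in the labels. Neuroepithelial cells (NEC) were taken on embryonic day 9.5 (E9.5) and the other cells at E14.5. The E14.5 cells were apical radial glia that proliferate (aRG-P), apical radial glia that generate neurons (aRG-N), radial glia of the basal kind (bRG), and neurons (N). Each cell type and mark had 2 immunoprecipitated samples, which the labels of aRG-N H3K27me3 call technical replicates. Cell type and age cannot be told apart for NEC, since no other cell type was sampled at E9.5.

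Neuroepithelial cells form the early neural tube as a single-layered epithelium and divide to expand it, before they turn into the radial glia that generate cortical neurons. H3K4me3 is written by SET1 and MLL (COMPASS) complexes and marks the promoters of active genes and of genes held ready for use, most of them at CpG islands. H3K27me3 is written by Polycomb repressive complex 2 (PRC2) and spreads over silent developmental genes. Promoters that carry both marks in stem and progenitor cells are called bivalent. Loss of H3K4me3 at such a promoter during development commonly goes with silencing, and loss of H3K27me3 with activation.

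Because every peak list was called on its samples combined, replicate error cannot be stated for any value, and no test between cell types was made. The NEC list had 17196 autosomal H3K4me3 peaks, against 14278 to 15475 in the E14.5 lists. The lists thus differed in length in the direction that the rule selects. Fold enrichment, a ratio to background that the authors' peak caller gave, is used within the NEC list only. With all 5 lists cut to their 14801 strongest peaks by −log10 p, 856 autosomal regions were NEC-only, and with a fold enrichment of at least 10 required in NEC, 322 were. The H3K27me3 lists held from 3387 (bRG) to 6165 (aRG-N) autosomal peaks, with 5798 for NEC. Read depth is unknown. The file headers limit the lists to peaks of transcripts, and every distance below is to the nearest listed peak or region. Positions are 1-based in mouse build mm9. Genes and sequence at these positions were not analysed here, because the reference tables used another build.

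Most NEC-only regions were narrow and weak. In the median they spanned 317 bp (95% order-statistic interval 307 to 329), with quartiles of 224 and 521 bp. The median was 1458 bp for the 11345 autosomal regions shared by all 5 lists. The narrowest were 183 bp wide, the shortest peak in the NEC list. The fold enrichment of the NEC peak had a median of 5.91, with quartiles of 4.93 and 7.88, against a median of 26.1 for the shared regions. The 1969 regions marked in NEC and in 1 to 3 other lists lay between, with medians of 685 bp and 10.3. Fold enrichment in the NEC list came in steps of 0.493, and 82.5% of the NEC-only values were whole multiples of it within 0.02 steps. The median NEC-only region was 12 steps high and the median shared region 53. The −log10 q of NEC-only peaks in the authors' deposited table had a median of 6.69 and ranged from 1.41 to 161.

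A short tail of regions was wider or stronger than this majority. Regions wider than 2000 bp numbered 27. Fold enrichment was at most 5 in 816 NEC-only regions, between 5 and 10 in 1436, between 10 and 20 in 310 and over 20 in 12. Their median widths were 222, 352, 727 and 4017 bp in that order. NEC-only regions made up 82.8% of all autosomal NEC regions with a fold enrichment of at most 5, 53.1% of those between 5 and 10, 7.72% between 10 and 20, and 0.147% over 20.

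**Figure D1:**
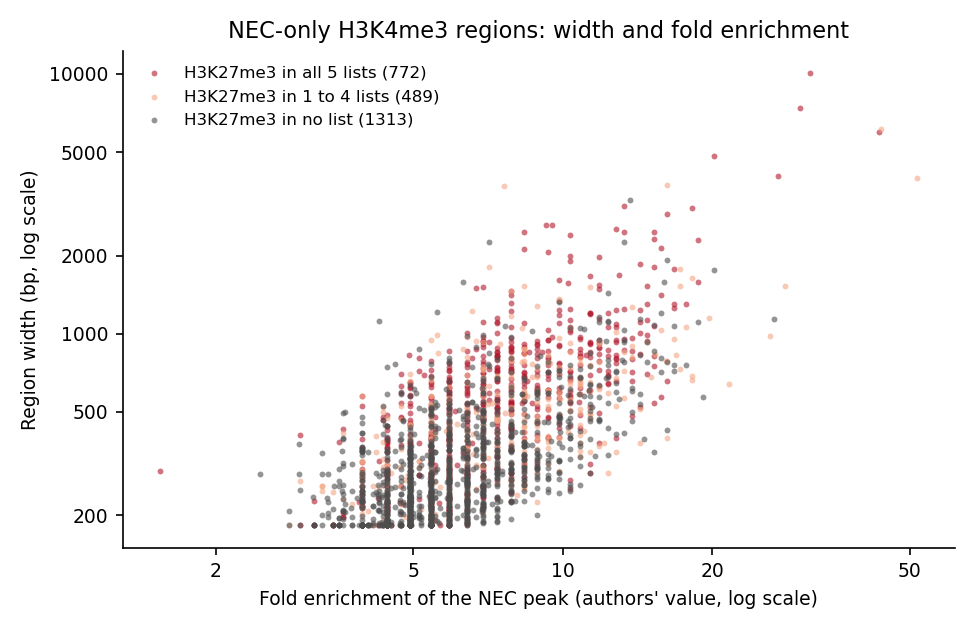
Width of each of the 2574 NEC-only regions in bp against the fold enrichment of its NEC peak (authors' value), with 1 point a region and log scales on both axes, coloured by the number of H3K27me3 lists with an overlapping peak. Most points lie below 521 bp and 7.88, and the few regions above 2000 bp are mainly those with H3K27me3 in 1 or more lists.

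The edge of the rule ran through weak peaks. The NEC-only regions closest to another H3K4me3 list, chr4:130221136-130221361 and chr6:88034127-88034350, touched a peak of another list without sharing a base, and chr7:29158134-29158408 lay 1 bp from one. Their fold enrichments were 5.42, 6.70 and 8.87. The NEC peaks that just missed the rule shared 2 bp with an N peak (chr9:21874794-21875192, fold enrichment 3.55), 3 bp with an aRG-N peak (chr11:79525549-79525753, 4.43) and 8 bp with an aRG-P peak (chr19:46392423-46392820, 5.42). Membership therefore turned on a few bases for such peaks.

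The 10 strongest NEC-only regions had fold enrichments of 21.7 to 51.7 and widths of 638 to 10058 bp. An H3K27me3 peak of all 4 E14.5 lists overlapped 9 of them, and a neighbouring pair of these on chromosome 17 shared its E14.5 domain. Of the 10, 5 had H3K27me3 in the 4 E14.5 lists and not in NEC, 4 had it in all 5 lists and 1 in none. Over all autosomal H3K4me3 regions these patterns made up 0.923%, 12.4% and 69.0%. All 10 lay at least 11.8 kb from a region shared by all 5 cell types. They are described one by one below. For 6 of them an unlisted E14.5 H3K4me3 call was possible, judged by the peak numbers described further on.

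At chr4:133571168-133575153 the NEC H3K4me3 peak was 3986 bp wide with a fold enrichment of 51.7, the highest of all NEC-only regions. No listed H3K27me3 peak of NEC lay within 218 kb, though 30.9% of the peak numbers of that list were missing from it. At E14.5 H3K27me3 peaks of 4.64 kb (aRG-P) to 5.93 kb (N) lay over it. Of its bases, 66.0% were covered for aRG-P, 79.5% for aRG-N, 80.2% for bRG and 84.7% for N. Most of the stretch with H3K4me3 at E9.5 was thus under H3K27me3 at E14.5.

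The next region, chr14:49281168-49287289, was 6122 bp wide with a fold enrichment of 43.8 and lay 214 kb from a shared region. At E14.5 it was buried in an H3K27me3 domain of 28.3 kb in bRG and up to 29.8 kb in aRG-N, which covered it whole in all 4 lists. In NEC the nearest H3K27me3 peak was 927 bp away.

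A pair of neighbouring regions on chromosome 17 showed the same contrast in coverage although both counted as having H3K27me3 in all 5 lists. At chr17:86020069-86026069 (6001 bp, fold enrichment 43.3) H3K27me3 covered 12.6% of the region in NEC, with a peak of 0.756 kb, and the whole of it in every E14.5 list. At chr17:86011676-86019048 (7373 bp, 30.05) it covered 65.6% in NEC, again against the whole region in every E14.5 list. There the E14.5 domain spanned both regions and measured 25.1 kb in bRG to 30.5 kb in aRG-N.

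The widest NEC-only region, chr6:23194233-23204290, measured 10058 bp with a fold enrichment of 31.5, and lay 368 kb from a shared region. H3K27me3 covered 48.3% of it in NEC, against 88.4% in bRG and all of it in aRG-P, aRG-N and N. By contrast, H3K27me3 covered chr5:120881898-120885945 (4048 bp, 27.1) whole in all 5 lists, within a domain of 17.3 kb in NEC and 18.97 to 25.4 kb at E14.5. The same held for chr19:59242045-59246885, the fifth widest at 4841 bp (20.2), under a NEC domain of 15.6 kb and E14.5 domains of 22.4 to 46.2 kb.

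Smaller strong regions repeated these arrangements. At chr10:93296222-93297749 (1528 bp, fold enrichment 28.1) the nearest NEC H3K27me3 peak was 485 bp away, while E14.5 peaks of 3.08 to 6.51 kb covered between 74.0% and 100% of the region. At chr3:96205475-96206112 (638 bp, 21.7) it was 593 bp away, and E14.5 domains of 18.3 to 22.7 kb covered the region whole. At chr2:158201274-158202254 (981 bp, 26.1) the nearest NEC H3K27me3 peak was 146 kb away, and E14.5 peaks of 1.68 kb (bRG) and more covered it whole. The remaining member of the 10, chr17:23687414-23688556 (1143 bp, 26.6), had no H3K27me3 in any list, with the nearest peak 84.2 kb away in N.

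NEC-only regions fell into 2 groups by their distance to the nearest region shared by all 5 lists. The median distance was 12.7 kb (interval 10.99 to 14.6), but few regions lay near that value: the quartiles were 0.235 kb and 56.6 kb. Within 1000 bp of a shared region lay 907 regions (35.2%, exact 95% binomial interval 33.4 to 37.1%). Only 141 (5.48%) lay farther than that and up to 5000 bp away, while 821 (31.9%) lay over 5000 and up to 50000 bp away and 705 (27.4%) beyond. Regions of NEC and 1 to 3 other lists numbered 548, 126, 661 and 634 in these classes, so the split was not particular to NEC-only regions. The lists hold peaks of transcripts only, and the part of this limit in the 2 groups was not tested. Intervals here and below cover counting error only.

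**Figure D2:**
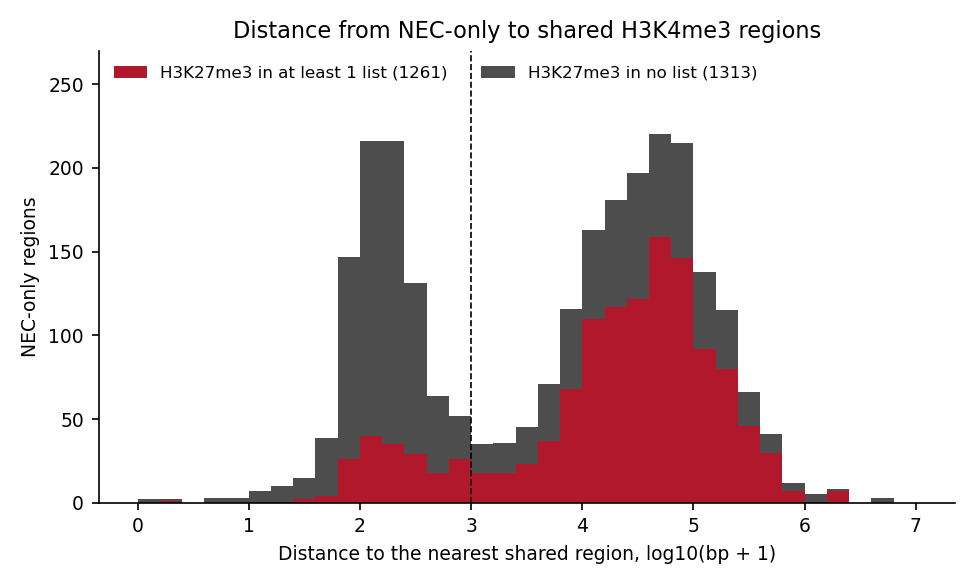
Histogram of the distance from each of the 2574 NEC-only regions to the nearest region shared by all 5 H3K4me3 lists, as log10 of bp plus 1, stacked by H3K27me3 in at least 1 list (1261) or in no list (1313), with a dashed line at 1000 bp. The 907 regions left of the line are mostly without H3K27me3, and most of those to the right have it.

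The regions beside a shared region were the weaker and narrower ones. Those within 1000 bp had a median width of 254 bp and a median fold enrichment of 5.42, and none exceeded 16.2. Beyond 5000 bp the median width was 381 bp up to 50000 bp and 390 bp farther out, with a median fold enrichment of 6.40 in each class. The share lying within 1000 bp was 47.1% among regions with a fold enrichment of at most 5, 33.2% between 5 and 10, 14.8% between 10 and 20, and 0% of the 12 above 20. The 865 shared regions with a NEC-only region within 1000 bp had a median width of 1453 bp and a median fold enrichment in NEC of 28.1, against 1458 bp and 26.0 for the 10480 without.

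Regions of other single lists also lay beside shared ones. Of 47 aRG-P-only regions 61.7% (46.4 to 75.5%) lay within 1000 bp of a shared region, of 130 aRG-N-only regions 46.2% (37.4 to 55.1%), of 25 bRG-only regions 80.0% (59.3 to 93.2%) and of 242 N-only regions 65.3% (58.9 to 71.3%). NEC had the lowest of these 5 shares. Over 5000 bp from a shared region lay 1526 NEC-only regions, or 59.3% of their set. The numbers were 12 of aRG-P only (25.5%), 59 of aRG-N only (45.4%), 3 of bRG only (12%) and 61 of N only (25.2%). An E14.5 region counted as single only when the other lists of the same age also lacked it, while NEC was the only E9.5 list. Neither the counts nor the shares of the 5 sets therefore compare like with like.

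H3K27me3 was frequent at NEC-only regions, in NEC and at E14.5 alike. A peak of the NEC H3K27me3 list overlapped 1044 of them (40.6%, 38.7 to 42.5%), against 26.6% of all autosomal H3K4me3 regions and 20.6% of the shared ones. The aRG-P list overlapped 962 (37.4%), against 16.6% of all and 9.41% of shared regions. For aRG-N these values were 1073 (41.7%), 20.5% and 12.9%. For bRG they were 873 (33.9%), 15.6% and 9.17%, and for N they were 1109 (43.1%), 21.3% and 13.5%. NEC-only regions were narrower than shared ones and so had less length to meet a peak by. The NEC-only share exceeded the shared one in all 5 lists, and by more percentage points at E14.5 than in NEC. Regions of NEC and 1 to 3 other lists were close to NEC-only ones, with 42.8% for NEC and 31.1% (bRG) to 40.9% (N) at E14.5. Regions in 1 domain are not independent, and no test was made between these sets.

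**Figure D3:**
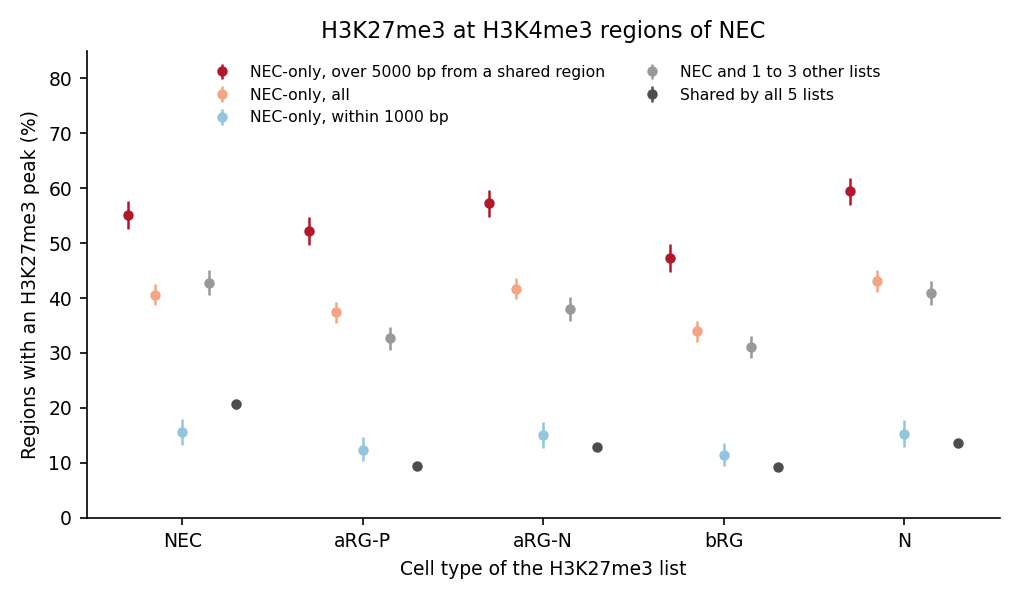
Percent of H3K4me3 regions with an overlapping H3K27me3 peak in each cell type, with exact 95% binomial intervals, for NEC-only regions over 5000 bp from a shared region (1526), all 2574, those within 1000 bp (907), regions of NEC and 1 to 3 other lists (1969) and regions shared by all 5 lists (11345). Distant NEC-only regions are highest in each cell type, at 47.2 to 59.4%, and those within 1000 bp lie at 11.4 to 15.5%.

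H3K27me3 was mostly present in all lists or in none. No list had a peak at 1313 NEC-only regions (51.0%), against 69.0% of all autosomal H3K4me3 regions. All 5 lists had one at 772 (29.99%, 28.2 to 31.8%), against 12.4% of all autosomal regions and 6.34% of the shared ones. Regions of NEC and 1 to 3 other lists again came close, with 51.04% in no list and 26.3% in all 5. The remaining 489 were spread over 24 combinations. Among these, 81 had H3K27me3 in NEC only (3.15%, against 6.37% of all autosomal regions). Another 61 had it in the 4 E14.5 lists and not in NEC (2.37%, 1.82 to 3.03%, against 0.923% of all autosomal regions). The combination of all lists but bRG, the shortest list, had 64.

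**Figure D4:**
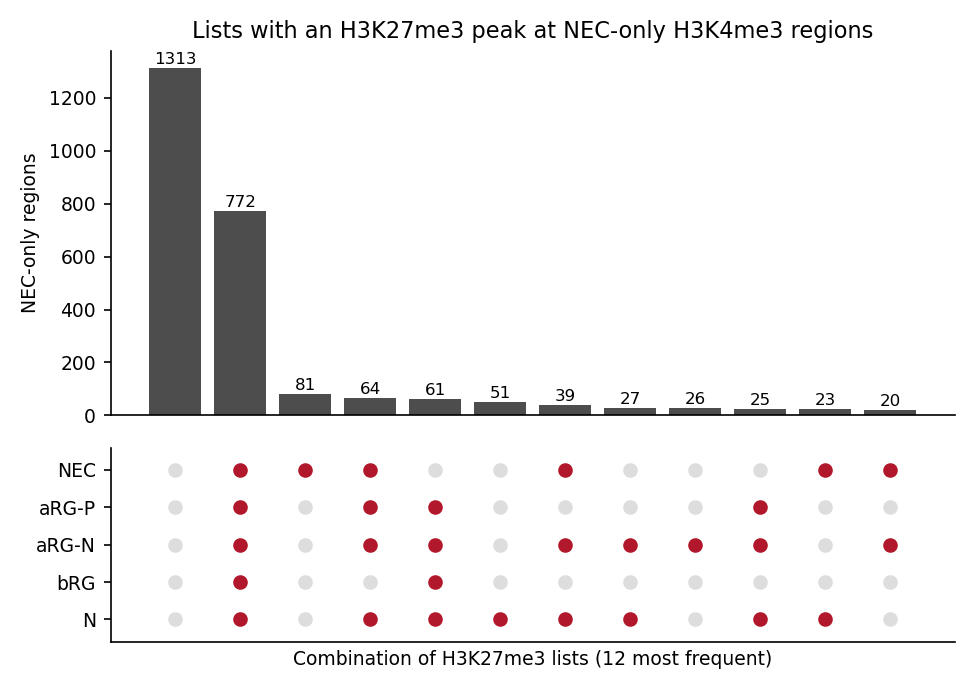
Number of NEC-only regions for each of the 12 most frequent combinations of H3K27me3 lists, with red dots for the lists that had an overlapping peak. No list (1313) and all 5 lists (772) hold most regions, and H3K27me3 in NEC only (81) and in the 4 E14.5 lists only (61) are of similar size.

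The 2 distance groups differed in H3K27me3. Within 1000 bp of a shared region 141 of 907 (15.5%, 13.2 to 18.1%) had H3K27me3 in NEC and 138 (15.2%) in N, and 726 (80.0%) had none in any list. Over 5000 bp away 841 of 1526 (55.1%, 52.6 to 57.6%) had it in NEC. At E14.5 the number ran from 721 (47.2%) in bRG to 907 (59.4%) in N. Here 650 (42.6%) had it in all 5 lists and 520 (34.1%) in none. Beside a shared region the NEC-only region mostly had the state of its neighbour: H3K27me3 of NEC was present at both in 124 cases, at neither in 719, at the NEC-only region alone in 17 and at the shared region alone in 47. Such pairs lay at most 1000 bp apart, and autosomal NEC H3K27me3 peaks had a median width of 2221.5 bp. A single peak could thus span both, and the agreement was not tested.

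At like distance, regions of NEC and 1 to 3 other lists came close to NEC-only regions in NEC itself and lay below them at E14.5. Over 5000 bp from a shared region, 55.1% of NEC-only regions and 55.4% of the 1295 partly shared ones had H3K27me3 in NEC. In aRG-P the values were 52.2% and 43.2%, in aRG-N 57.2% and 49.8%, in bRG 47.2% and 41.3%, and in N 59.4% and 54.1%. Among regions of other single lists at that distance, the mark was present in their own cell type at 2 of 12 aRG-P-only, 5 of 59 aRG-N-only, 1 of 3 bRG-only and 11 of 61 N-only regions.

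H3K27me3 at E14.5 was more frequent at the stronger NEC-only regions, as it was in N at regions of NEC and 1 to 3 other lists, and less frequent at shared regions above 20. In N it was found at 34.2% of NEC-only regions with a fold enrichment of at most 5, 44.0% between 5 and 10, 60.6% between 10 and 20, and 83.3% (10 of 12, interval 51.6 to 97.9%) above 20. Of the shared regions 3 of 30 had it in the first class, and 24.1%, 29.1% and 7.58% in the others. Regions of NEC and 1 to 3 other lists had 20.1%, 34.7%, 48.5% and 54.3% across the 4 classes. Between 10 and 20 H3K27me3 was found at 51.3% of NEC-only and 22.0% of shared regions in aRG-P, 55.8% and 30.2% in aRG-N, and 45.5% and 20.4% in bRG. In NEC the same class had 52.6% (46.9 to 58.3%) and 43.7% (41.9 to 45.6%), a smaller gap. Below 10 the NEC values were alike, with 42.1% and 40.3% between 5 and 10, and 33.3% and 40.0% up to 5, where only 30 regions were shared. Over 5000 bp from a shared region the N values of NEC-only regions were 54.3%, 59.3%, 66.5% and 83.3%.

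**Figure D5:**
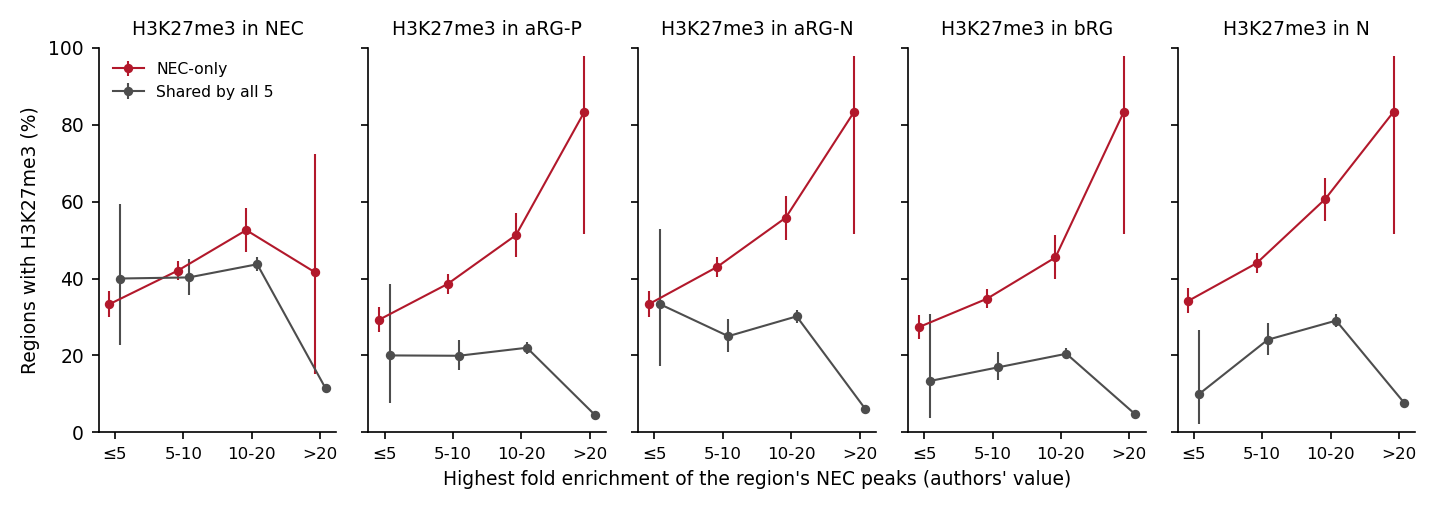
Percent of regions with H3K27me3 in each cell type against the highest fold enrichment of the region's NEC peaks, in 4 classes (at most 5, 5 to 10, 10 to 20, over 20), for NEC-only regions (red) and regions shared by all 5 lists (grey), with exact 95% binomial intervals. At E14.5 NEC-only regions rise to 83.3% in the highest class, which holds 12 regions, while shared regions above 20 lie at 4.41 to 7.58%.

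The 772 NEC-only regions with H3K27me3 in all 5 lists mostly lay inside its domains. H3K27me3 of NEC covered the whole region in 720 of them (93.3%, 91.3 to 94.9%). At E14.5 this held for 692 (bRG) to 760 (N; 98.4%, 97.3 to 99.2%). Among the 134 with a fold enrichment of at least 10 full coverage was less common in NEC, at 108 (80.6%, 72.9 to 86.9%), and in bRG, at 106 (79.1%), than in aRG-P, at 122 (91.0%), aRG-N, at 132 (98.5%), and N, at 131 (97.8%). The domains over these 134 had median widths of 4.23 kb in NEC and 4.32 kb in bRG, and of 5.32 kb (aRG-P) to 6.83 kb (aRG-N) in the other lists, so NEC and bRG also had the shortest domains there.

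NEC-only regions were found in a minority of H3K27me3 domains, and these domains were longer than the rest. A longer domain is more likely to overlap a region of any kind. Whether the difference in length was particular to NEC-only regions was not tested. In NEC, 850 of 5798 autosomal H3K27me3 peaks (14.7%) overlapped at least 1 NEC-only region, and 141 overlapped several. Any autosomal H3K4me3 region was overlapped by 3696 of the 5798. The median of the 850 peaks was 3927 bp and that of the others 2005 bp, and their caller score had a median at percentile 75.6 of the list, against 45.6. In N it was 887 of 5448 peaks (16.3%) with medians of 4439 and 1889 bp. Of the 850 NEC peaks, 601 (70.7%) held no other H3K4me3 region, 144 also held a region shared by all 5 lists and 105 held regions of some lists only. The E14.5 lists gave 71.5% to 73.9% of peaks with no other region. A domain of 25.2 kb in NEC, chr2:33478471-33503659, held 6 NEC-only regions, as did chr14:46998605-47012316 with 13.7 kb. The aRG-N domain over the first of these measured 51.9 kb and held the same number.

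Where H3K27me3 was found in the 4 E14.5 lists and not in NEC, it was often close by in NEC. Of these 61 regions, 23 (37.7%, 25.6 to 51.0%) had a NEC H3K27me3 peak within 5000 bp, while 24 had none within 50000 bp. Their median width of 562 bp and median fold enrichment of 6.90 lay above those of all NEC-only regions, and 14 had a fold enrichment of at least 10. Of the 1313 regions with no H3K27me3 in any list, 140 (10.7%) lay within 5000 bp of a NEC peak. That group was narrow, with a median of 269 bp, and 726 of it (55.3%) lay within 1000 bp of a shared region.

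The 81 regions with H3K27me3 in NEC only were about as weak as NEC-only regions in general. Their median fold enrichment was 5.82, against 5.91 for all NEC-only regions. The highest was 16.3, at chr8:97844088-97844875, where a NEC H3K27me3 peak of 1.01 kb covered 55.7% of 788 bp. At chr10:126946225-126946908 (fold enrichment 15.1) a domain of 9.05 kb covered the region whole in NEC, and the nearest E14.5 peak lay 14.7 kb away in aRG-N. At chr11:3414431-3415448 (12.8) coverage in NEC was 23.1% and E14.5 peaks came within 618 bp in bRG. At chr4:141570701-141571457 (11.3) it was 26.6%. In all, 24 of the 81 had a peak of at least 1 E14.5 list within 5000 bp.

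Apart from chr17:23687414-23688556, the strongest regions without H3K27me3 in any list were chr15:76037856-76039610 (1755 bp, fold enrichment 20.2), chr5:121129788-121130359 (572 bp, 19.2) and chr18:23656006-23657110 (1105 bp, 18.7). The first had H3K27me3 7.57 kb away in NEC, the second 1.88 kb away in aRG-N, and the third 252 kb away in NEC, the nearest of all lists. In these 4 regions H3K4me3 was not in the E14.5 lists and no listed H3K27me3 peak lay in its place.

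A call left out of a deposited list would look like absence, and the peak numbers limit how often this can be so. Numbers rose along every chromosome in each list, and 8.63% to 10.9% of the E14.5 H3K4me3 numbers were missing from the lists. For 1947 of the 2574 NEC-only regions (75.6%) the listed peaks on either side had consecutive numbers in all 4 E14.5 lists, so no unlisted call lay there. For 615 at least 1 unlisted call lay somewhere between the neighbouring peaks, at an unknown position. Consecutive numbers were seen in 753 of the 907 regions within 1000 bp of a shared one and in 437 of the 705 over 50000 bp away. Of the 10 strongest regions 4 had consecutive numbers in all 4 lists: those on chromosomes 2, 4, 6 and 14. H3K27me3 shares over the 1947 regions were 39.2% in NEC and 32.3% to 41.8% at E14.5. For H3K27me3 itself, 42 of the 61 regions with the mark at E14.5 alone had consecutive numbers around them in the NEC list, and so had 25 of the 81 in the reverse case in all 4 E14.5 lists. Of the 1313 regions with no H3K27me3 listed, 331 (25.2%) had consecutive numbers in all 5 H3K27me3 lists, and an unlisted call was possible near 967. Of the H3K27me3 numbers 26.5% to 36.6% were missing from the lists.

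NEC-only regions were found on every autosome. They made up between 11.6% of NEC regions on chromosome 16 and 20.03% on chromosome 17. Within 5000 bp of another NEC-only region lay 672 (26.1%), and within 50000 bp 1168 (45.4%). The densest window of 1 Mb, from 23 Mb on chromosome 13, held 19 of them among 45 NEC regions, and 18 of the 19 had no H3K27me3 in any list. The next, from 133 Mb on chromosome 4, held 17 among 39, of which 7 had no H3K27me3 and 5 had it in all 5 lists. The 3 NEC-only regions farthest from a shared region lay together on chromosome 14 (chr14:4213432-4213646, chr14:4437489-4437788 and chr14:4518142-4518823), 4132 to 4437 kb from one. They had fold enrichments of 4.93, 7.88 and 9.85 and no H3K27me3, and unlisted E14.5 calls were possible there.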

How the data were processed

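H3K4me3 and H3K27me3 chromatin was immunoprecipitated with a low-cell kit and made into MicroPlex libraries, per the labels' protocols. Among tools and builds, mm9, bedtools, MACS2 and Bowtie 1.0.0 are listed in the submitters' processing notes. The deposited files are 10 peak lists, which the authors called on combined samples, per the peak names; the file headers limit them to peaks of transcripts, with a window of 2000 bp named for aRG-P and aRG-N H3K4me3. Per the peak names, the aRG-P H3K27me3 list leaves out a set and the N H3K27me3 list used reads extended by 200 bp. For H3K4me3 the deposited columns are a fold enrichment (ratio), −log10 p and −log10 q per peak. The deposited H3K27me3 columns are treated as a score, since column 9 exceeded column 8 in every peak. Fold and score describe or rank peaks within a list only.

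Regions, overlaps and distances between nearest edges were computed with pandas 2.3.3, scipy 1.17.1 and numpy 2.4.6 under Python 3.11.15, and plotted in matplotlib 3.10.9. Shares have exact Clopper-Pearson 95% intervals. Medians have order-statistic intervals. No test was run. Named regions were the 10 strongest, the 5 widest, the 4 strongest of each of 4 H3K27me3 patterns, the 3 farthest from a shared region, and those at the edge of the rule. Members, lists and rules were chosen with earlier results of these data known, and the distance classes and windows after seeing the values. As a check of the code, 200 peaks were added to the NEC list away from all listed peaks, so that they met the rule. All 200 were called and 0 others, which bears on the code only. The 2 Input samples were not analysed here.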

Additional observations from a re-analysis of the deposited data

How the results depend on the processing

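The counts and medians followed how strictly an H3K4me3 peak was called or joined. Values below are in the order number of regions, median width, median fold enrichment, median distance to a shared region, and percent with H3K27me3 by cell type (NEC, aRG-P, aRG-N, bRG, N). With a −log10 q of at least 5 in all H3K4me3 lists they were 2097, 417 bp, 7.10, 20291 bp, and 44.2, 40.9, 45.45, 37.0 and 47.2%. With a NEC fold enrichment of at least 10 they were 322, 752.5 bp, 11.97, 28005 bp, and 52.2, 52.5, 56.8, 46.9 and 61.5%. With peaks joined across gaps of up to 3000 bp they were 1104, 500 bp, 7.08, 40786 bp, and 54.8, 50.4, 56.2, 44.2 and 58.2%. With no other list's H3K4me3 peak within 5000 bp they were 1283, 404 bp, 6.90, 44771 bp, and 54.95, 52.1, 57.4, 46.3 and 59.5%. With all H3K4me3 lists cut to 14801 peaks by −log10 p they were 856, 586 bp, 9.36, 24838 bp, and 51.2, 47.9, 53.7, 44.2 and 56.4%. With only the NEC list cut, to 15422 peaks they were 1086, 515 bp, 8.37, 21221 bp, and 47.6, 44.5, 49.5, 40.8 and 51.9%. Over 1000 bp from a shared region, a setting chosen after seeing the data, they were 1667, 381 bp, 6.40, 38399 bp, and 54.2, 51.0, 56.2, 46.2 and 58.2%. With an overlap of at least 50% counted as shared, the median distance was 10059 bp, and with no unlisted E14.5 call possible, also added after seeing the data, it was 9297 bp. H3K27me3 over at least 50% of a region gave 38.0% in NEC. With all H3K27me3 lists cut to 3476 peaks the shares were 34.5% (NEC), 34.46% (aRG-P), 38.2% (aRG-N) and 39.4% (neurons). That length is the bRG list over all chromosomes, with 3387 of 3476 peaks autosomal, against 5798 of 9460 in NEC. The cut therefore need not make the lists equal on the autosomes. With H3K27me3 counted within 5000 bp the shares were 49.0% for the NEC list, then 48.7% for neurons, 48.2% for aRG-N, 43.8% for aRG-P and 39.4% for bRG. Of 105 values recomputed under these settings 31 stayed within their interval or within 1.5 times the count, including all 9 with every chromosome used. No paired analysis was possible because the lists were called on combined samples and their columns carry no replicate, and leaving out a replicate was not possible for the same reason. Read depth is unknown, so an absent peak does not show an absent mark.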

Other observations

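Off the autosomes, 144 NEC-only H3K4me3 regions lay on chromosome X, with a median width of 264 bp and a median fold enrichment of 5.42 in the NEC list. H3K27me3 was present at 56 of them in NEC (38.9%, exact 95% binomial interval 30.9 to 47.4%), against 40.6% on the autosomes. At E14.5 it was present at 18 in bRG (12.5%), 25 in aRG-P (17.4%) and 32 each in aRG-N and N (22.2%). Only 10 (6.94%) had it in all 5 lists and 22 (15.3%, 9.83 to 22.2%) had it in NEC only, against 3.15% in NEC only on the autosomes. The 345 X regions shared by all 5 H3K4me3 lists had H3K27me3 in NEC at 44.6% and in the E14.5 lists at 2.32% to 13.0%. Of these shared X regions 105 (30.4%) had it in NEC only, so that pattern on X was not particular to NEC-only regions. The whole H3K27me3 lists also differed off the autosomes. Autosomal peaks were 5798 of 9460 in NEC, against 3387 of 3476 in bRG and 6165 of 6830 in aRG-N.

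In the reverse direction, 58 autosomal regions had H3K4me3 in all 4 E14.5 lists and not in NEC. This asks for a peak in 4 lists at once, so the number cannot be set against that of NEC-only regions. H3K27me3 of NEC overlapped 17 of these (29.3%, 18.1 to 42.7%), against 26.6% of all autosomal H3K4me3 regions. In NEC only it was found at 6 (10.3%, 3.89 to 21.2%), against 6.37%. Both intervals include the share of all autosomal regions, but they are wide. With 58 regions these values cannot tell whether the shares differ. At E14.5 the number with H3K27me3 ran from 4 in bRG (6.897%, against 15.6% of all) to 11 in aRG-N (18.97%, against 20.5%). It was 8 in aRG-P (13.8%, against 16.6%) and 5 in N (8.62%, against 21.3%).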
